A study of Homo sapiens with 12 samples.

Results

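The genes described are 10 imprinted genes, H19, IGF2, CDKN1C, PHLDA2, MEST, PEG10, GRB10, PLAGL1, NDN and PEG3, found by symbol among the 57773 genes of a raw count table from A549 cells. The set was selected on results of these same data, since H19 and MEST had already been seen among the largest differences between siGOLM1-1 and control. The differences of the 10 genes are therefore given as a description, with standard errors and without p-values. Of the 10, 9 passed the filter on low counts that left 17532 genes, and PEG3 did not.

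A549 is an established human lung adenocarcinoma line. The cells were reverse transfected with 50 nM of a non-targeting control siRNA, of siGOLM1-1 or of siGOLM1-2, and RNA was taken 72 h later for stranded mRNA libraries. The siRNAs are directed at GOLM1, which encodes a Golgi membrane protein, and the design asks which transcripts differ when it is silenced. Each of the 3 groups held 4 libraries, called biological replicates in the labels. Nothing says whether these were separate cultures on separate days, so the spread may be partly technical.

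Imprinted genes are expressed mainly or only from the copy inherited from one parent, because differentially methylated regions set in the germ line are kept through cell divisions. H19, CDKN1C and PHLDA2 are expressed from the maternal copy, and IGF2, MEST, PEG10, PLAGL1, NDN and PEG3 from the paternal copy, while GRB10 depends on the tissue. Many of them act on fetal and placental growth, and several lose or change their imprint in cancers, lung tumours included. Counts per gene do not separate the parental copies, so every value below is the sum over both.

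H19 and MEST each carry a microRNA gene within their transcription unit, which is why the mature sequences are shown first. They are from RefSeq, build GRCh38.p14, 5′ to 3′, with the seed, bases 2 to 8, in capitals. The MEST arms lie at chr7:130496126-130496148 and chr7:130496162-130496183 on the plus strand. The H19 arms lie at chr11:1996800-1996822 and chr11:1996768-1996787 on the minus strand.
hsa-miR-335-5p (MEST): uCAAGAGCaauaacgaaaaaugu
hsa-miR-335-3p (MEST): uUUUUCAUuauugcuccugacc
hsa-miR-675-5p (H19): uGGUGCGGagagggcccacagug
hsa-miR-675-3p (H19): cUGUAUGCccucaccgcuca
No seed is shared among the 4 arms. The MIR335 gene had 0 counts in each of the 12 libraries, in which 3 counts amount to between 0.0426 and 0.0721 CPM, counts scaled to a common library total. These libraries were made from mRNA, which does not capture mature microRNAs. MIR675 was not analysed here.

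Promoter windows of 300 bases, from 250 before to 50 after a transcription start, were matched in the RefSeq table (GRCh38.p14) for 5 of the 10 genes, namely H19, MEST, GRB10, PLAGL1 and NDN, with 17 windows in all. IGF2, CDKN1C, PEG10, PHLDA2 and PEG3 had no entry. The windows of MEST and H19 are shown because these genes differed most between siGOLM1-1 and control, in opposite directions. The MEST window, 1 of 5 for that gene and the one with the most matches to the motif described next, lies at chr7:130491835-130492134 on the plus strand, and the H19 window at chr11:2001217-2001516 on the minus strand. The H19 window is the only one listed for that gene. It lies several kilobases upstream of the miR-675 arms and need not be the promoter used in these cells. Other H19 starts were not looked at. Capitals mark matches on either strand to TGCCGC, the core that the imprint-keeping zinc finger protein ZFP57 is known to read when it is methylated. Neighbouring matches can overlap.
MEST promoter window: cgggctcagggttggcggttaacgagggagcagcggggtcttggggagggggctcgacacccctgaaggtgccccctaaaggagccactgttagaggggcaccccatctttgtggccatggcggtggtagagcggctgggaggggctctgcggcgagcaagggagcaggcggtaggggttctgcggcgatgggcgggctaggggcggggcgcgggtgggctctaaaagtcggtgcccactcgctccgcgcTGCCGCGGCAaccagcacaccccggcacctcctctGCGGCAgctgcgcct
H19 promoter window: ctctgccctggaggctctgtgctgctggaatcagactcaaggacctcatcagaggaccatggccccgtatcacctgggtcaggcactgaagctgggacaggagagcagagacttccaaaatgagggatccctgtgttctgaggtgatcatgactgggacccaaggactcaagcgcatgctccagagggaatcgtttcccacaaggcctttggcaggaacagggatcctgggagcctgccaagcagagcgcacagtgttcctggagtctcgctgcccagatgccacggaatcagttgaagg
The MEST window held 3 matches to that core, 2 GC boxes (GGGCGG) and 25 CpG dinucleotides at 70.3% GC. The other 4 MEST windows held 0 to 2 matches, 13 to 22 CpG dinucleotides and 49% to 68.7% GC. The H19 window held no match to either motif and 6 CpG dinucleotides at 57.7% GC. Neither window held TATAAA. Over all 35116 windows of 27305 genes, 16.7% held TGCCGC on either strand, 45% held GGGCGG, 11.5% held TATAAA, and the medians were 14 CpG dinucleotides and 58.7% GC. Of the 17 windows of the imprinted genes, 7 held TGCCGC on either strand. MEST windows among the 7 overlap each other and share the same sites, so nothing is read from that count. A match describes letters in a window and no binding.

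GOLM1 itself had 366 CPM ± 14.9 (SD, n = 4) in control libraries, 38.5 ± 0.672 in those of siGOLM1-1 and 47.5 ± 4.15 in those of siGOLM1-2, with no overlap between control and either siRNA. Total counts per library lay between 41.6 M and 71.3 M. CPM here uses the library total scaled by edgeR's TMM factor. All 7 epithelial or A549 markers listed had means of at least 1 CPM in every group, with sums of 8317 to 10040 CPM in the control libraries, 5739 to 6839 with siGOLM1-1 and 9920 to 10400 with siGOLM1-2. The 11 markers of other cell types summed to 42.2 to 81.7 CPM, 66.9 to 110 and 39.4 to 52.5 in the same order. Of the 11, PTPRC, CD3E, VWF and DCN were at or below 0.142 CPM in every library. COL1A1 had means of 49.3, 71.1 and 27.3 CPM in control, siGOLM1-1 and siGOLM1-2, and CD14 had 7.04, 12.7 and 11.8. COL3A1, ALB, CDH5, LYZ and PDGFRB had group means between 0.0827 and 6.26 CPM. The epithelial sums with siGOLM1-1 lay below those of the control, while the other sums overlapped with the control. Within the epithelial list, KRT8, KRT18 and AKR1B10 lay below the control libraries with siGOLM1-1, and AKR1C1 lay above them. EPCAM, KRT19 and CDH1 overlapped with the control there. The part of these sums in the results was not tested. In cell populations, fewer expressing cells and less RNA per cell cannot be told apart.

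The control libraries fell into pairs, with replicates 1 and 2 on one side and replicates 3 and 4 on the other. Their deviations from the control mean over genes correlated at 0.33 and 0.39 within the pairs and at -0.70 to -0.66 between them. FKBP5 and PER1, genes that glucocorticoids are known to induce, had means of 22.7 and 11.1 CPM in the first pair and 223 and 108 CPM in the second. Of the imprinted genes, CDKN1C was 3.11-fold higher in the second pair, and IGF2 and H19 were 2.32-fold and 2.11-fold higher in the first. Fold changes against each pair alone are given below for the described genes that they move, and the cause of the split was not tested.

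With siGOLM1-1, H19, IGF2, CDKN1C and PHLDA2 were higher than in the control and MEST was lower. The siGOLM1-1 libraries of PEG10, GRB10, PLAGL1 and NDN overlapped with the control. With siGOLM1-2, the same set of 10 split differently. Means were higher for H19, IGF2, MEST, GRB10, PLAGL1 and PHLDA2 and lower for CDKN1C, PEG10 and NDN. The siGOLM1-2 libraries of H19, IGF2, CDKN1C and NDN overlapped with the control. Calls rest on edgeR's quasi-likelihood test, with p-values adjusted by Benjamini-Hochberg over all genes tested and a threshold of 0.05. By that rule, counted here once for comparison with all genes, 4 of the 9 members in the fit were called higher and 1 lower with siGOLM1-1, where 23.7% of all genes were called higher and 23.8% lower. With siGOLM1-2, 5 were called higher and 1 lower, against 21.8% and 23.2% of all genes. Between the siRNAs, 4 were called higher with siGOLM1-1 and 3 lower, against 27.9% and 26.5%. Since the genes were chosen with these contrasts known, nothing is read from those counts. They also depended on the fit. Against control replicates 1 and 2 alone, 2 members were called higher with siGOLM1-2 and 1 lower. Both comparisons with control use the same 4 control libraries.

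**Figure D1:**
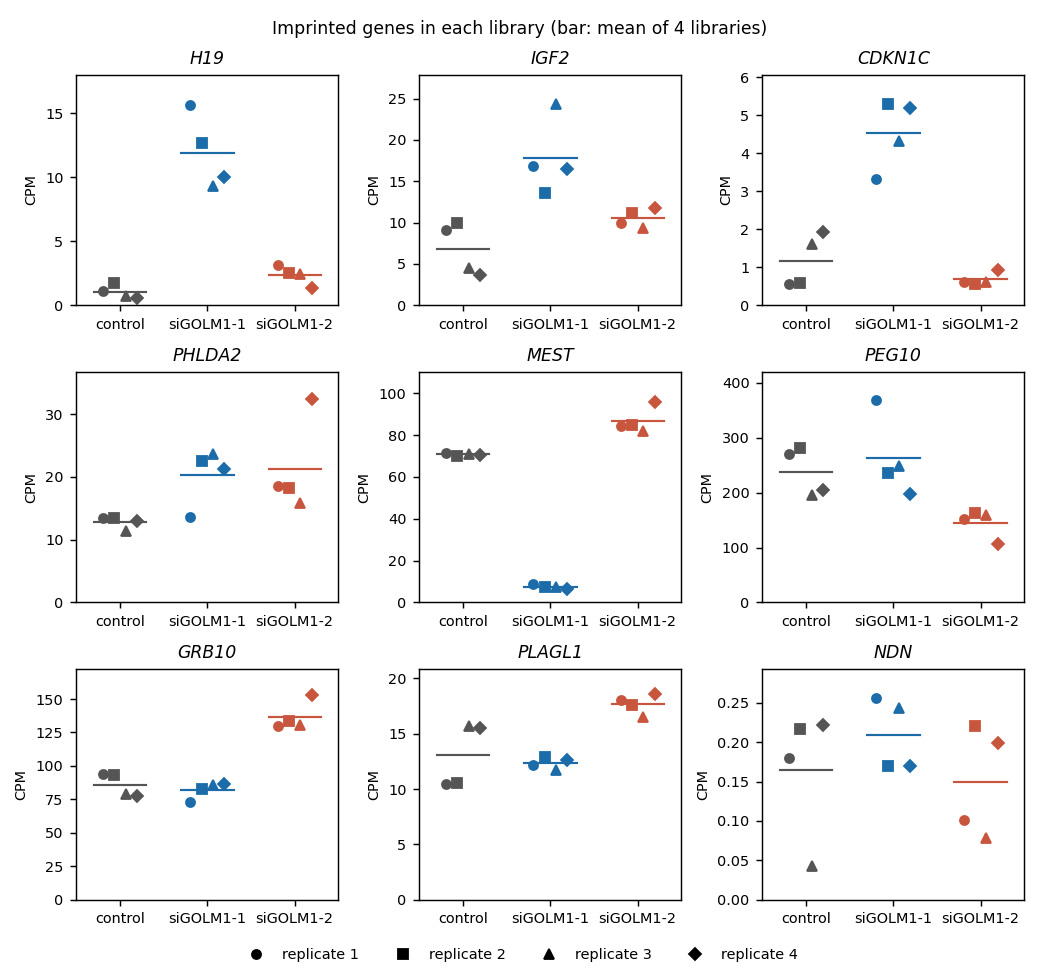
CPM (linear axis from 0) of 9 imprinted genes in each of the 12 libraries, by group, with the symbol shape giving the replicate number and the bar the mean of 4 libraries. H19 was highest in the 4 siGOLM1-1 libraries, and MEST was lowest there, between 6.67 and 9.01 CPM.

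H19, a maternally expressed long noncoding RNA, showed the largest difference from control among the members. Control libraries 1 to 4 held 1.08, 1.71, 0.720 and 0.604 CPM. The siGOLM1-1 libraries held 15.6, 12.7, 9.34 and 10.0 CPM, and the siGOLM1-2 libraries 3.13, 2.52, 2.47 and 1.35 CPM. Every siGOLM1-1 library lay above every other library, while siGOLM1-2 replicate 4 lay below control replicate 2. H19 was 11.7-fold higher with siGOLM1-1 than in the control (log2 fold change 3.55, SE 0.32). It was 2.32-fold higher with siGOLM1-2 (log2 1.22, SE 0.32). Between the siRNAs it was 5.03-fold higher with siGOLM1-1 (log2 2.33, SE 0.30). The size depended on which control pair was used. Against control replicates 3 and 4 alone the log2 fold changes were 4.18 with siGOLM1-1 and 1.85 with siGOLM1-2, and against replicates 1 and 2 alone they were 3.11 and 0.77.

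IGF2, the growth factor gene that neighbours H19 on chromosome 11 and shares its enhancers, was also highest with siGOLM1-1. The control libraries held 9.08, 10.0, 4.51 and 3.72 CPM. With siGOLM1-1 it had 16.9, 13.6, 24.4 and 16.5 CPM, and the siGOLM1-2 libraries 9.98, 11.2, 9.31 and 11.8 CPM. The siGOLM1-1 libraries did not overlap with any other library, whereas those of siGOLM1-2 overlapped with control replicates 1 and 2. IGF2 was 2.61-fold higher with siGOLM1-1 than in the control (log2 1.39, SE 0.28). The siGOLM1-2 difference from control was 0.63 (log2, SE 0.28). Between the siRNAs the log2 difference was 0.75 (SE 0.27). Against control replicates 3 and 4 alone, the log2 fold changes were 2.12 and 1.38, and against replicates 1 and 2 alone 0.90 and 0.15. Reads from the overlapping INS-IGF2 and IGF2-AS genes may be split from IGF2 or counted with it, since the strand setting of the counting was not given in the sources used here.

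At this locus, textbook imprinting places H19 and IGF2 on opposite parental copies, and their ratio within a library does not depend on how libraries are scaled. The count ratio of H19 to IGF2 was 0.119, 0.171, 0.160 and 0.162 in control replicates 1 to 4. It was 0.928, 0.928, 0.384 and 0.608 with siGOLM1-1 and 0.313, 0.225, 0.265 and 0.114 with siGOLM1-2. The means were 0.153 ± 0.0232 (SD, n = 4), 0.712 ± 0.266 and 0.229 ± 0.0848. The ratio was almost the same in control replicates 2, 3 and 4 although both genes differed between the control pairs. All siGOLM1-1 ratios lay above all others, and siGOLM1-2 replicate 4 lay below every control library.

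**Figure D2:**
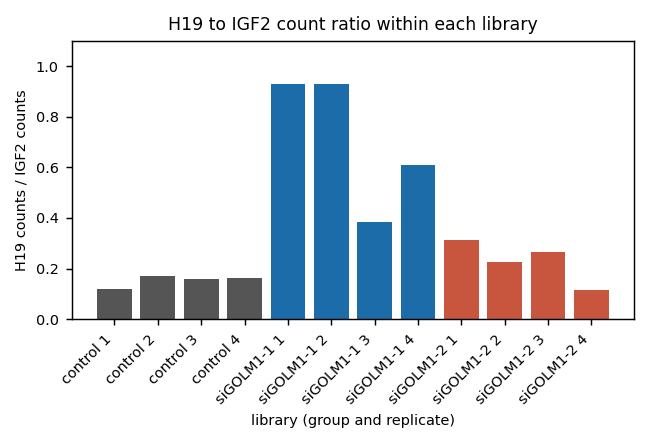
Ratio of H19 counts to IGF2 counts (axis from 0) in each of the 12 libraries, 1 bar per library, coloured by group. The siGOLM1-1 bars reach 0.384 to 0.928 and the control bars 0.119 to 0.171.

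CDKN1C, the cyclin-dependent kinase inhibitor p57, is maternally expressed from the same chromosome 11 region. In the control, the libraries held 0.560, 0.577, 1.61 and 1.93 CPM. Libraries with siGOLM1-1 held 3.33, 5.29, 4.31 and 5.19 CPM, and the siGOLM1-2 libraries 0.625, 0.558, 0.626 and 0.934 CPM. The siGOLM1-1 libraries lay above all others, and the siGOLM1-2 libraries lay among or below the control ones. CDKN1C was 3.84-fold higher with siGOLM1-1 than in the control (log2 1.94, SE 0.35) and 6.59-fold higher than with siGOLM1-2 (log2 2.72, SE 0.36). The siGOLM1-2 difference from control was -0.78 (log2, SE 0.37). With control replicates 3 and 4 alone as reference it was -1.35, and with the other control pair it was 0.26. The siGOLM1-1 fold changes against the same pairs were 1.36 and 2.99.

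PHLDA2, a small maternally expressed protein with a pleckstrin homology domain that restrains placental growth, was higher with both siRNAs. Control replicates 1 to 4 held 13.5, 13.5, 11.5 and 12.9 CPM. Under siGOLM1-1 the values were 13.54, 22.6, 23.6 and 21.2 CPM, and the siGOLM1-2 libraries 18.5, 18.2, 15.9 and 32.4 CPM. The groups did not overlap with the control, although siGOLM1-1 replicate 1 exceeded the highest control library by less than 0.1 CPM. The log2 fold changes were 0.65 (SE 0.21) with siGOLM1-1 and 0.73 (SE 0.21) with siGOLM1-2, and -0.07 (SE 0.21) between the siRNAs, where the libraries overlapped. Without siGOLM1-2 replicate 4, the siGOLM1-2 value was 0.45.

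MEST, a paternally expressed gene on chromosome 7 that encodes a member of the alpha/beta hydrolase fold family, was low with siGOLM1-1 and slightly high with siGOLM1-2. Values in the control were 71.6, 70.1, 70.9 and 70.3 CPM. Its siGOLM1-1 libraries held 9.01, 7.25, 7.43 and 6.67 CPM, and the siGOLM1-2 libraries 84.4, 84.9, 82.0 and 95.8 CPM. All 3 groups were separate, with siGOLM1-1 below and siGOLM1-2 above the control. MEST was 9.29-fold lower with siGOLM1-1 (log2 -3.22, SE 0.09), 1.23-fold higher with siGOLM1-2 (log2 0.29, SE 0.08) and 11.4-fold lower with siGOLM1-1 than with siGOLM1-2 (log2 -3.51, SE 0.09). The control pairs had nearly equal means of 70.8 and 70.6 CPM. The fold change with siGOLM1-1 was of about the size measured for GOLM1 itself (log2 -3.25, SE 0.07). Antisense transcripts overlap MEST, and their reads may be split from MEST or counted with it.

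COPG2, the neighbouring gene that overlaps the MEST locus on the other strand and encodes a coatomer subunit, went in the other direction with each siRNA. Its mean was 18.2 CPM in control libraries, 25.6 in those of siGOLM1-1 and 9.73 in those of siGOLM1-2. It rose with siGOLM1-1 (log2 0.50, SE 0.08, adjusted p = 0.000253 in edgeR's test) and fell with siGOLM1-2 (log2 -0.90, SE 0.08, adjusted p = 2.6e-06 in the same test). CPA4, a carboxypeptidase gene of the same imprinted domain, rose with siGOLM1-2 (log2 3.14, SE 0.58, edgeR adjusted p = 0.000843). Its control libraries, split as the pairs above, held 8.34, 6.83, 2.12 and 1.87 CPM. Its siGOLM1-2 libraries held 26.0, 28.3, 25.0 and 89.0 CPM, and without replicate 4 the fold change was 2.47. Over the alternative fits the CPA4 value with siGOLM1-2 ran from 2.47 to 4.41. CEP41, which lies further along, fell with siGOLM1-2 (log2 -1.30, edgeR adjusted p = 2.29e-05).

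PEG10, a paternally expressed gene derived from a retrotransposon, was the member with the highest CPM. Its control libraries held 269.5, 280.2, 196 and 204 CPM. Replicates with siGOLM1-1 had 369, 235, 248 and 198 CPM, and the siGOLM1-2 libraries 152, 162, 159 and 106 CPM. The siGOLM1-2 libraries lay below all others, and the siGOLM1-1 libraries overlapped with the control. The log2 fold change was 0.14 (SE 0.19) with siGOLM1-1 and -0.71 (SE 0.19) with siGOLM1-2. Between the siRNAs it was 0.86 (SE 0.19). Against control replicates 3 and 4 alone the siGOLM1-2 value was -0.45. SGCE, which shares its promoter region with PEG10 in head-to-head orientation and is likewise paternally expressed, had means of 61.4, 60.0 and 62.1 CPM in control, siGOLM1-1 and siGOLM1-2. Its log2 fold changes were -0.03 and 0.02, with edgeR adjusted p = 0.719 and 0.863.

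GRB10, an adaptor that restrains signalling from insulin and IGF receptors, was higher with siGOLM1-2 than in both other groups. In control replicates 1 to 4 it had 93.7, 93.5, 79.3 and 77.5 CPM. The 4 siGOLM1-1 libraries held 72.8, 82.6, 85.4 and 86.7 CPM, and the siGOLM1-2 libraries 129.9, 133, 130.3 and 153 CPM. The siGOLM1-2 libraries lay above all others and the remaining groups overlapped. The log2 fold changes were -0.07 (SE 0.09), 0.67 (SE 0.09) and, between the siRNAs, -0.74 (SE 0.09). DDC, a neighbour of GRB10 that encodes aromatic amino acid decarboxylase, fell with siGOLM1-2 (log2 -2.51, SE 0.32, edgeR adjusted p = 3.17e-05). The control libraries of DDC held 3.04, 3.29, 6.43 and 7.08 CPM. Over the alternative fits its siGOLM1-2 value ran from -2.94 to -1.86. COBL, an actin nucleator gene on the other side, fell with siGOLM1-1 (log2 -0.88, edgeR adjusted p = 9.4e-06) and rose with siGOLM1-2 (log2 0.49, edgeR adjusted p = 0.00112).

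PLAGL1, a zinc finger transcription factor that is paternally expressed from chromosome 6, followed the same order as GRB10 at a lower level. The 4 control libraries held 10.4, 10.5, 15.7 and 15.5 CPM. In siGOLM1-1 libraries it had 12.1, 12.9, 11.7 and 12.6 CPM, and the siGOLM1-2 libraries 18.1, 17.6, 16.6 and 18.6 CPM. The siGOLM1-2 libraries lay above all others, and the siGOLM1-1 libraries lay between the control pairs. The log2 fold changes were -0.08 (SE 0.13) with siGOLM1-1, 0.44 (SE 0.13) with siGOLM1-2 and -0.52 (SE 0.13) between the siRNAs. Against control replicates 3 and 4 alone, the values for siGOLM1-1 and siGOLM1-2 were -0.33 and 0.20.

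NDN and PEG3 were at or near the limit of detection. NDN, a MAGE family gene of the chromosome 15 imprinted domain, had 2 to 18 counts per library. Its means were 0.165 CPM ± 0.0838 (SD, n = 4) in control libraries, 0.209 ± 0.0466 in those of siGOLM1-1 and 0.149 ± 0.0703 in those of siGOLM1-2. Differences of this gene between groups were not detectable at this depth. PEG3, a zinc finger gene, had 0 counts in 11 libraries and 1 count in siGOLM1-2 replicate 1. A count of 0 allows up to 3 counts, or 0.0426 to 0.0721 CPM, for counting error alone.

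**Figure D3:**
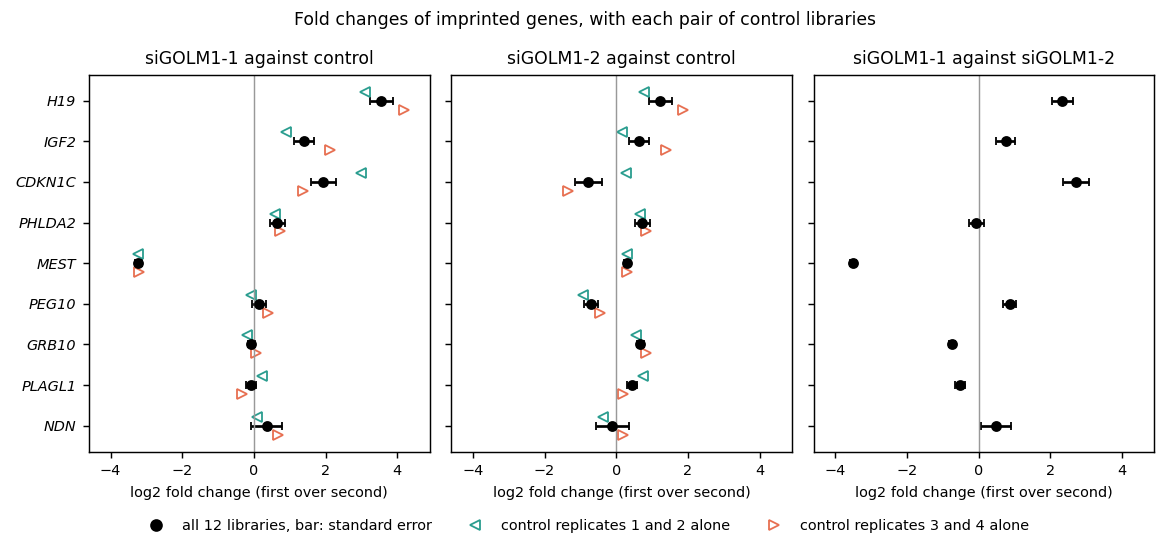
Log2 fold change with its standard error (black points and bars) for 9 imprinted genes in each of the 3 comparisons, from one edgeR fit of all 12 libraries, with open triangles for the value against control replicates 1 and 2 alone (pointing left) or 3 and 4 alone (pointing right). With siGOLM1-1, H19 stands at 3.55 and MEST at -3.22, and with siGOLM1-2 H19 stands at 1.22 and MEST at 0.29.

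The authors' deposited table gave values close to these. In the authors' deposited table the log2 fold changes with siGOLM1-1 and siGOLM1-2 were 3.56 and 1.23 for H19, 1.40 and 0.65 for IGF2, and -3.20 and 0.31 for MEST. For CDKN1C the authors' deposited table gave 1.96 and -0.76, and for PEG10 0.16 and -0.70.

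Levels were compared between genes only per kilobase of merged exon, with lengths from GENCODE release 29, as RPKM, the CPM divided by that length. In the control, PEG10 was highest at 35.5, followed by MEST at 14.8, PHLDA2 at 13.4 and GRB10 at 8.78. PLAGL1 at 1.49, IGF2 at 0.978, CDKN1C at 0.472 and H19 at 0.355 followed, and each of these overlapped with its neighbour in that order over the 4 libraries. NDN was at 0.0855. With siGOLM1-1, H19 at 4.11 had a higher mean than IGF2 at 2.55, CDKN1C at 1.83 and MEST at 1.58. The libraries of H19 and IGF2 overlapped there, at 3.22 to 5.40 and 1.95 to 3.49, and in replicate 3 H19 was below IGF2. With siGOLM1-2, PHLDA2 at 22.2, PEG10 at 21.6 and MEST at 18.1 had the highest means, with PHLDA2 at 16.6 to 33.9 and PEG10 at 15.9 to 24.2 overlapping, and CDKN1C at 0.277 stood below H19 at 0.817. Lengths describe all annotated exons and not the isoforms that A549 cells use.

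The genes whose levels moved most like H19 and MEST over the 12 libraries were found by Pearson's r of log2 CPM, as a description. For H19 they were DOK7 (r = 0.983), FZD5 (0.982) and SNTB1 (0.981). DOK7, an activator of the muscle kinase MuSK, had means of 0.267, 4.17 and 1.02 CPM in control, siGOLM1-1 and siGOLM1-2. For MEST they were SUFU (r = 0.998), CIAPIN1 (0.997) and ISG20L2 (0.997). SUFU, an inhibitor of Hedgehog signalling, had means of 24.3, 6.60 and 26.2 CPM, and CIAPIN1 had 80.8, 24.4 and 91.3. The 12 points fall into 3 groups, so these values mostly describe shared group means.

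Other imprinted genes were listed by gene knowledge, with earlier results of these data known but not used to choose them. Of 61 listed, 56 were in the table and 37 were tested. With siGOLM1-1, 8 rose, 6 fell and 23 were not called, a share of 37.8% called against 47.5% of all genes. With siGOLM1-2, 7 rose and 11 fell, or 48.6% against 45%. Between the siRNAs 10 were higher with siGOLM1-1 and 7 lower, or 45.9% against 54.4%. The median log2 values were -0.01, -0.13 and 0.07, against -0.01, -0.01 and 0.01 for all genes. Each share lay within 10 percentage points of that of all genes.

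Parental origin is as listed by gene knowledge, can depend on the tissue and was not measured in these cells. Of 15 genes listed as paternally expressed, 1 rose with siGOLM1-1 and 3 fell, or 26.7% called. Of 22 listed as maternally expressed, 7 rose and 3 fell, or 45.5%. Of all genes, 47.5% were called, 23.7% higher and 23.8% lower. With siGOLM1-2, 3 genes of the paternal list rose and 3 fell, or 40%, and 4 of the maternal list rose and 8 fell, or 54.5%. Of all genes, 45% were called, 21.8% higher and 23.2% lower. BLCAP, listed as paternally expressed with tissue-dependent imprinting, had means of 41.6 CPM in control libraries, 101 with siGOLM1-1 and 79.2 with siGOLM1-2. It rose with both (log2 1.28 and 0.93, edgeR adjusted p = 4.18e-07 and 9.5e-06). INPP5F, an inositol phosphatase gene with an imprinted isoform, fell with siGOLM1-1 (log2 -1.07, SE 0.10, edgeR adjusted p = 1.39e-06), with libraries of 8.73, 7.32, 8.47 and 6.69 CPM against 15.9 to 16.9 in the control. IGF2R, the receptor that removes IGF2 from the cell surface, rose with both siRNAs, from 186 CPM to 314 (log2 0.76, edgeR adjusted p = 0.000441) and 286 (log2 0.62, edgeR adjusted p = 0.00203).

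NLRP2, a maternally expressed gene of the NLR family, fell with both siRNAs, from 136 CPM to 88.0 and 93.6 (log2 -0.63 and -0.54, edgeR adjusted p = 3.53e-05 and 0.00015). ANO1, a calcium-activated chloride channel gene that is imprinted in placenta, rose with both siRNAs, from 0.304 CPM to 0.897 with siGOLM1-1 (log2 1.55, SE 0.34, edgeR adjusted p = 0.00184) and to 1.85 with siGOLM1-2 (log2 2.60, SE 0.33, edgeR adjusted p = 2.87e-05). SNHG14, the long host transcript of the chromosome 15 domain that also holds NDN, fell with siGOLM1-2 (log2 -0.76, SE 0.12, edgeR adjusted p = 0.000234). GNAS, the stimulatory G protein gene, was higher with siGOLM1-1 than with siGOLM1-2 (log2 0.55, edgeR adjusted p = 0.000228).

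**Figure D4:**
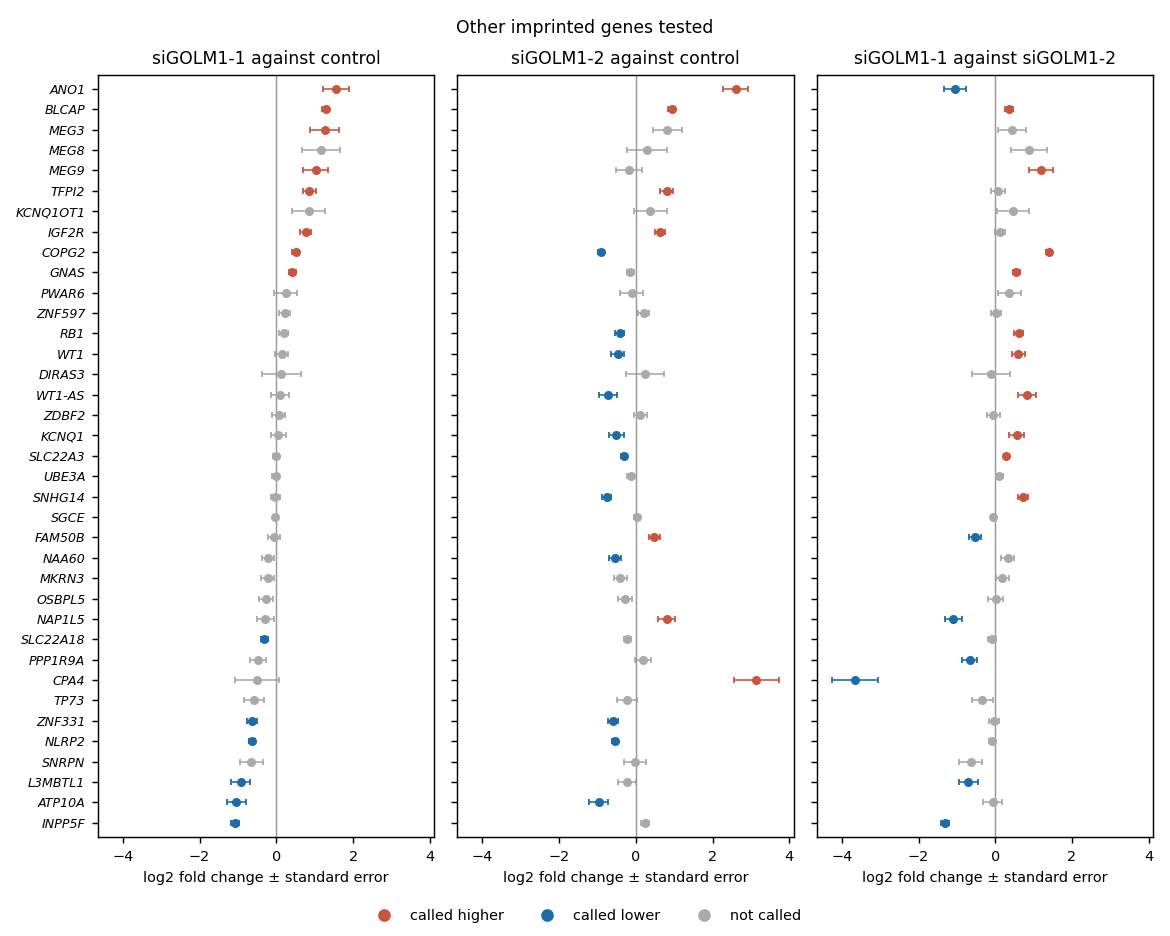
Log2 fold change with its standard error for the 37 other imprinted genes tested, in 3 panels that share one horizontal scale, coloured by whether the gene was called higher, called lower or not called. Of the 37, 23 were not called with siGOLM1-1 and 19 with siGOLM1-2.

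Genes beside or within the imprinted domains that were not listed as imprinted were counted as well. Whether any of them is imprinted was not looked at, so they are not a non-imprinted comparison set. Of 27 tested, 1 rose and 6 fell with siGOLM1-1, or 25.9% called against 47.5% of all genes, and 2 rose and 10 fell with siGOLM1-2, or 44.4% against 45%. Between the siRNAs, 5 were higher with siGOLM1-1 and 9 lower, or 51.9% against 54.4%. The median log2 values were -0.23, -0.07 and 0.02. Named by the smallest p, FIGNL1 (log2 -0.99, edgeR adjusted p = 2.03e-05) and CD81 (log2 -0.59, edgeR adjusted p = 7.33e-05) fell with siGOLM1-1. FIGNL1 was also lower with siGOLM1-2, at 16.4 to 22.2 CPM against 25.9 to 31.6 in the control, while CD81 overlapped with the control there. NIPA2, a magnesium transporter gene of the chromosome 15 region, fell with siGOLM1-2 (log2 -1.49, SE 0.08, edgeR adjusted p = 4.03e-08). PON3, a paraoxonase gene near PEG10, fell with both (log2 -0.67 and -0.85, edgeR adjusted p = 0.000276 and 4.53e-05).

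Of 24 genes listed as setting, keeping or removing imprints, 20 were tested. With siGOLM1-1, 2 rose, 4 fell and 14 were not called, or 30% called against 47.5% of all genes. With siGOLM1-2, none rose, 11 fell and 9 were not called, or 55% against 45%. By direction, 21.8% of all genes were called higher with siGOLM1-2 and 23.2% lower. DNMT3B, a de novo DNA methyltransferase, moved in opposite directions. Its control libraries held 20.2, 20.8, 24.7 and 27.8 CPM, its siGOLM1-1 libraries 60.1, 77.0, 71.1 and 89.5, and its siGOLM1-2 libraries 14.8, 14.9, 13.6 and 13.1. The groups did not overlap. DNMT3B rose with siGOLM1-1 (log2 1.67, SE 0.13, edgeR adjusted p = 2.27e-07) and fell with siGOLM1-2 (log2 -0.73, SE 0.13, edgeR adjusted p = 0.00037).

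Between the siRNAs, 8 were higher with siGOLM1-1 and 3 lower, or 55% called against 54.4% of all genes. The median log2 values of the list were 0.01, -0.29 and 0.15 in the 3 comparisons. UHRF1, DNMT1 and HELLS, which act in keeping methylation through replication, fell with both siRNAs. UHRF1, which recruits DNMT1 to newly copied DNA, fell from 58.9 CPM to 29.4 with siGOLM1-1 (log2 -1.0, edgeR adjusted p = 2.23e-06) and to 41.2 with siGOLM1-2 (log2 -0.51, edgeR adjusted p = 0.000674). DNMT1 fell by 0.88 and 0.49 on the log2 scale (edgeR adjusted p = 6.95e-06 and 0.00106), and the chromatin remodeller HELLS fell by 1.05 and 0.84 (edgeR adjusted p = 9.51e-05 and 0.000607). TRIM28, the corepressor that ZFP57 recruits, fell with siGOLM1-2 (log2 -0.65, edgeR adjusted p = 9.45e-06), as did the Polycomb methyltransferase EZH2 (log2 -0.78, edgeR adjusted p = 9.8e-06) and TET3 (log2 -0.67, edgeR adjusted p = 0.000215). ZFP57 was not tested, with means of 0.207 CPM in control libraries, 0.0284 in those of siGOLM1-1 and 0.105 in those of siGOLM1-2. These means rest on 39, 7 and 22 counts per group. The siGOLM1-1 mean lies below 0.0426 CPM, the lowest value that 3 counts amount to in these libraries. DNA methylation was not measured in these libraries.

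**Figure D5:**
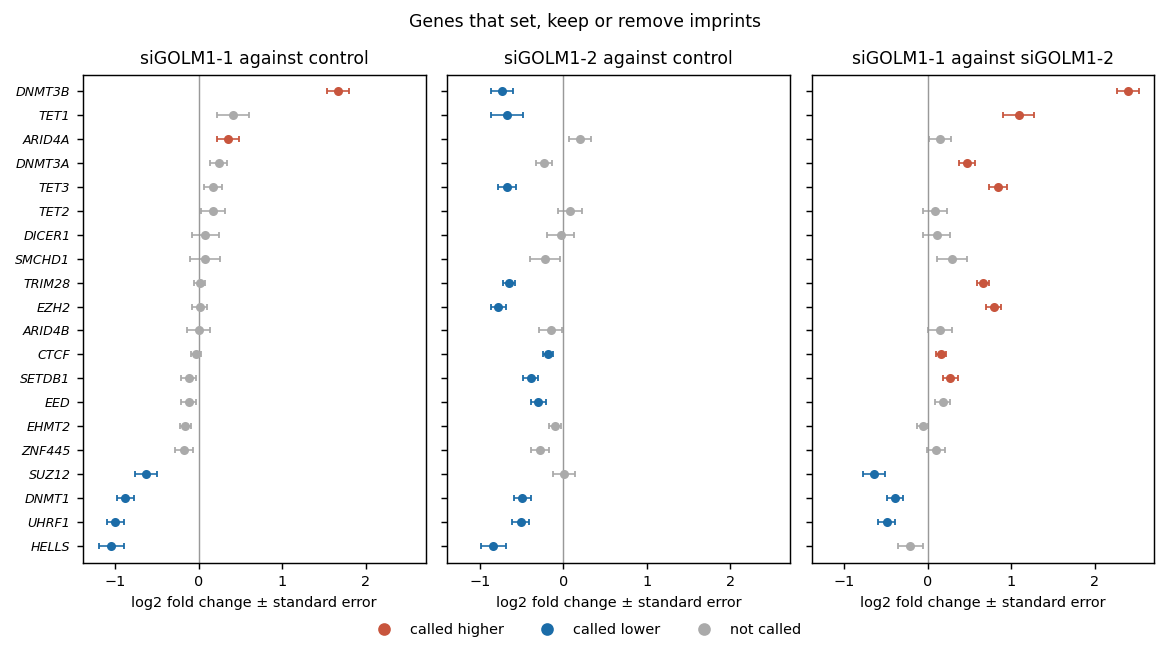
Log2 fold change with its standard error for the 20 tested genes that set, keep or remove imprints, in 3 panels that share one horizontal scale, coloured by whether the gene was called. DNMT3B stands at 1.67 with siGOLM1-1 and -0.73 with siGOLM1-2, and UHRF1, DNMT1 and HELLS were called lower with both siRNAs.

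Genes whose products are known to act with those of the imprinted genes, such as receptors and cell cycle partners, were counted last. Of 23 tested, 5 rose and 7 fell with siGOLM1-1, and 3 rose and 9 fell with siGOLM1-2, or 52.2% called in each against 47.5% and 45% of all genes. Between the siRNAs, 8 were higher with siGOLM1-1 and 8 lower, or 69.6% against 54.4%. The median log2 values were -0.01, -0.21 and -0.08. Of the IGF2 receptors, IGF1R was not called with siGOLM1-1 (log2 0.01, SE 0.09) or with siGOLM1-2 (log2 0.19, SE 0.09). INSR fell with siGOLM1-2 (log2 -0.44, SE 0.11, edgeR adjusted p = 0.00626). IGF2BP1, which binds IGF2 mRNA and that of H19, rose with siGOLM1-1 (log2 0.55, edgeR adjusted p = 6.23e-05) and fell with siGOLM1-2 (log2 -0.88, edgeR adjusted p = 1.47e-06).

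CDK2, a kinase that the CDKN1C product inhibits, fell from 74.4 CPM to 25.6 with siGOLM1-1 (log2 -1.54, SE 0.07, edgeR adjusted p = 2.31e-09) and to 53.7 with siGOLM1-2 (log2 -0.47, SE 0.07, edgeR adjusted p = 8.37e-05). CDKN1A, the related inhibitor p21, rose with siGOLM1-1 from 279 to 533 CPM (log2 0.93, edgeR adjusted p = 3.86e-07) and had 297 CPM with siGOLM1-2. LIN28B, an RNA-binding protein that blocks maturation of let-7, fell from 11.5 CPM to 2.27 with siGOLM1-1 (log2 -2.34, SE 0.16, edgeR adjusted p = 1.25e-07). E2F1 fell with siGOLM1-1 (log2 -1.04, edgeR adjusted p = 7.49e-07), and the PHLDA2 relative PHLDA3 rose (log2 0.95, edgeR adjusted p = 1.15e-05). The siGOLM1-2 libraries of LIN28B, E2F1 and PHLDA3 lay on the same side of the control. LIN28B held 6.74 to 8.36 CPM there against 10.9 to 12.5 in the control. E2F1 held 35.9 to 39.9 CPM against 42.5 to 53.2, and PHLDA3 121 to 170 against 79.7 to 90.1. With siGOLM1-2, CCNE2 fell (log2 -1.77, edgeR adjusted p = 3.92e-06) and PLAGL2, the paralogue of PLAGL1, rose (log2 0.71, edgeR adjusted p = 5.23e-06).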

How the data were processed

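RNA from 12 A549 libraries in 3 groups of 4 was sequenced after stranded mRNA library preparation, per the labels' protocols. The authors used bcl2fastq 2.20, STAR 2.7.3 and DESeq2 1.24.0 with the hg19 build, as the submitters' processing notes list them. How reads were counted, on which annotation and with which strand setting is not given in the sources used here. The deposited count table held raw counts for 57773 genes, 24653 of them without a count. Per the file headers, the authors' deposited result tables hold the log2 fold change and its error, a p-value, a Wald score and the normalised mean signal. From these, only the log2 fold changes are printed.

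Groups were taken from the labels. One quasi-likelihood fit of all 12 libraries was made with edgeR 4.0.16 in R 4.3.3, with filterByExpr, TMM scaling, robust dispersion and 9 residual degrees of freedom. The common biological coefficient of variation was 0.146. Each standard error is the size of the log2 fold change divided by the square root of the F statistic of edgeR's test. It therefore carries the same information as that test. Totals of 41.6 M to 71.3 M counts per library mean that low genes such as NDN carry few counts. Sequences came from RefSeq tables (GRCh38.p14) and were used by symbol, not by the coordinates of the counting. Fits were tested on simulated data. Alternatives were DESeq2 1.42.0, library totals without TMM, no filter, the replicate block, each control pair alone and each library left out.

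The members and gene lists were chosen with earlier results of these data known. Named genes were the members, GOLM1, listed genes at the members' loci, and per comparison and list the 5 called genes with the smallest p among those reaching a mean of 1 CPM in either group. For H19 and MEST, the 3 genes of highest correlation were added. IGF1R and INSR, outside that rule, were added as IGF2 receptors after their values were seen.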

Additional observations from a re-analysis of the deposited data

Results flagged for a closer look

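In 11 of the 138 groups of 4 libraries examined, the highest or lowest library stood apart from the other 3 by more than a gap test at the 95% level allows, and chance alone flags about 1 in 20 groups. Of the 11, 8 were siGOLM1-2 replicate 4. In that library GRB10 had 153 CPM where the next library had 133, and PHLDA2 had 32.4 where the next had 18.5. It was also highest for BLCAP at 99.6 CPM (next 74.5) and for CPA4 at 89.0 (next 28.3). It was lowest for COPG2 at 8.41 CPM (next 10.1), NLRP2 at 85.9 (next 95.7), PON3 at 18.3 (next 25.1) and SNHG14 at 51.5 (next 62.4). Without that library, the siGOLM1-2 log2 fold change was 0.61 for GRB10, 0.45 for PHLDA2, 0.80 for BLCAP and 2.47 for CPA4. The other 3 were CCNE2 in control replicate 2 at 7.96 CPM (next 6.58), DNMT1 in siGOLM1-1 replicate 1 at 115 (next 85.7) and GOLM1 in siGOLM1-1 replicate 4, lowest at 37.5 (next 38.7).

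For 7 of the members and genes named by the rule, every siGOLM1-1 library lay on one side of the control libraries and every siGOLM1-2 library on the other. These genes were chosen with results known or mostly named for a small p, which favours such separation. The share of all genes with this pattern was not counted, and 54.4% of all genes were called between the siRNAs. Nothing is read from the count. For MEST the log2 difference between the siRNAs was -3.51, and it is given without a test because the gene was chosen with results of these data known. For the others the difference was tested in edgeR's fit. DNMT3B differed by 2.40 (adjusted p = 6.69e-09), IGF2BP1 by 1.43 (8.05e-09) and COPG2 by 1.40 (1.95e-08). COBL differed by -1.37 (1.02e-07), INPP5F by -1.31 (1.38e-07) and MAGED1, a gene of the NDN family, by 0.99 (1.18e-07). SIAH1 and AKR1B10, listed but not named by the rule, also lay on opposite sides.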

How the results depend on the processing

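The 9 counts of called genes examined cover all genes, the other imprinted genes and the imprint regulators, and not the members. They kept within 1.5 times their value in all 21 alternatives. For all genes they ran from 7254 to 8700 with siGOLM1-1 (8333 in the reported fit). With siGOLM1-2 they ran from 6567 to 8329 (7885), and between the siRNAs from 8382 to 10016 (9541). Scaling by library totals gave 4682 higher and 3233 lower with siGOLM1-2 in place of 3814 and 4071, and 3564 higher and 5957 lower between the siRNAs in place of 4887 and 4654, with that median log2 value at -0.12 in place of 0.01. No member changed direction under that scaling. Of 1533 values for 73 results of named genes outside the members, 1501 kept direction and side of the threshold, 5 lost and 18 gained a call, and 9 changed sign, none of them called. These were CPA4 with siGOLM1-1 at 0.76 against control replicates 3 and 4 alone (-0.51 reported), SNHG14 with siGOLM1-1 at 0.12 against that pair, and values near 0 with single libraries left out, over which SNHG14 with siGOLM1-1 ran from -0.17 to 0.03 and SGCE from -0.09 to 0.01 with siGOLM1-1 and from -0.00066 to 0.04 with siGOLM1-2. The cause was not tested.

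Among the members, the siGOLM1-2 value without control replicate 1 or 2 was 0.80 and 0.89 for IGF2 and -1.02 and -0.98 for CDKN1C. The siGOLM1-1 values changed sign with the control pair for PEG10 (-0.07 with replicates 1 and 2), PLAGL1 (0.24 with that pair) and GRB10 (0.07 with replicates 3 and 4).

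Replicate numbers occur in every group but gave no pairing, since deviations of same-numbered libraries correlated at -0.20 to 0.35 and only 3 of 12 were best with their own number. With a replicate block, 8389, 7929 and 9613 genes were called, and IGF2 between the siRNAs had a log2 difference of 0.75.

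With 4 libraries per group and 2 to 18 counts, NDN could not be compared, and the control pairs limit H19, IGF2 and CDKN1C most.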

Other observations

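Several genes that act on imprints or with imprinted products differed between the siRNAs themselves. TRIM28 was higher with siGOLM1-1 than with siGOLM1-2 (log2 0.66, SE 0.07, edgeR adjusted p = 3.85e-06), as was the Polycomb gene EZH2 (log2 0.79, SE 0.09, edgeR adjusted p = 4.29e-06). The demethylase genes TET3 (log2 0.84, edgeR adjusted p = 1.78e-05) and TET1 (log2 1.09, edgeR adjusted p = 0.000317) were higher too. CDK2 was lower with siGOLM1-1 (log2 -1.07, SE 0.07, edgeR adjusted p = 3.21e-08), as was LIN28B (log2 -1.69, SE 0.16, edgeR adjusted p = 1.33e-06), while CDKN1A was higher (log2 0.84, SE 0.07, edgeR adjusted p = 5.7e-07). The core subunit SUZ12 of the same Polycomb complex fell with siGOLM1-1 (log2 -0.63, edgeR adjusted p = 0.00113).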
